A study of Rattus norvegicus with 18 samples.

Results

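Inflamed knee synovium of rats with the hot model of adjuvant-induced arthritis (AIA-hot) was compared with synovium of normal control rats across all genes, which used 6 of the 18 arrays of the series, 3 per group. AIA-hot rats were male Lewis rats with arthritis raised by adjuvant and placed in a hot model. How that model was made is not given in the labels, and the control rats were normal males of the same inbred strain. The other groups drawn on below were male Lewis rats with AIA alone (3 arrays) and with AIA in a cold model (AIA-cold, 3 arrays), and none of the 4 groups received a drug according to the labels. The remaining groups were AIA-hot and AIA-cold rats with a treatment that the labels call WTD (3 arrays each). Their arrays entered the filter on probes and the estimate of spread that all groups share. Each array measured the RNA of knee synovial tissue, a mixture of lining cells, fibroblasts, vessels, fat and immune cells, so that fewer cells of a type and less RNA per cell cannot be told apart. The rats were 6 to 8 weeks old when kept for the study. The titles call every array a biological replicate but do not say whether an array held 1 animal or a pool, and the p-values below measure the spread between arrays, which may be partly technical.

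Adjuvant-induced arthritis is a model of rheumatoid arthritis in which an immune reaction to mycobacterial adjuvant ends in swelling and erosion of joints. In inflamed synovium, macrophages and lining cells release interleukin-1 and tumour necrosis factor, and both act on NF-kB. Interleukin-1 does so through its receptor and kinases of the IRAK family. Chemokines then draw leukocytes out of the blood. Interferons switch on antiviral genes and antigen presentation through STAT proteins, and fibroblasts respond to cytokines with matrix proteins and the proteases that remove them.

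Signals are given as log2 of the processed fluorescence relative to the 75th percentile of the array, so 1 unit is a change by a factor of 2, and levels of different genes are not set against each other. Differences are AIA-hot minus control with the standard error of limma, and a gene passed the test when its Benjamini-Hochberg adjusted p over all 23605 genes was below 0.05. Control replicate 1 stood apart from the other arrays. Its 75th percentile was 68.9 intensity units, against 201 to 331 on the other 17 arrays, and 43.3% of its probes were well above background, against 56.4% to 76.5%. Its lowest signal well above background lay at -1.86, against -3.90 and -3.72 on control replicates 2 and 3, so a gene dimmer than that had no resolved level there. The 15 measured cartilage genes averaged 0.56, 1.1 and -0.33 on the AIA-hot arrays, and 5.17, -1.22 and 0.25 on control replicates 1, 2 and 3. The calls and list medians are therefore also given without control replicate 1. The controls were all hybridised on 1 slide and the AIA-hot arrays on 2 others, so slide and group cannot be told apart for this comparison, and only AIA replicate 1 shared a slide with the controls. Prg4, the lubricin gene of synovial lining, lay at 6.97, 7.38 and 7.73 in AIA-hot and at 7.32, 8.02 and 7.94 in control. Col1a1 lay above 7 on all 6 arrays. These 2 markers do not show that control replicate 1 matched the other arrays in tissue make-up. On control replicates 1, 2 and 3 synovial lining genes averaged 1.91, 2.39 and 2.25. Osteoblast genes averaged 1.83, -1.13 and -0.48 there, and macrophage genes -0.45, 1.33 and 1.17.

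limma placed 13 of 23605 genes (0.0551%) past the threshold, and 2858 had an unadjusted p below 0.05. Of the 13, 3 were higher in AIA-hot than in control (0.0127% of the genes tested) and 10 were lower (0.0424%). After quantile normalization 22 genes passed (0.0932%), 8 higher (0.0339%) and 14 lower (0.0593%). Without control replicate 1 the count was 7 (0.0297%), 3 higher (0.0127%) and 4 lower (0.0169%), of which 5 were among the 13: Irak2, Dusp14, Ubxn2b and the unnamed transcripts BQ204855 and A_44_P543733. The other 8 genes lost the call. Their direction could not change, as no AIA-hot array overlapped a control array for them. Klrd1 and the unnamed A_44_P414695 passed in that fit and not with all controls. Of the 13, 10 had a gene symbol. The count was 0 in 3 other fits: on the arrays of the 2 groups alone, with slide as a random block and with AIA-hot replicate 2 left out. The called genes whose result bears on the choice of arrays or probes are shown here by the 60-base probe sequences of the array, with the positions in the rat build rn4 that the file gives. The first 3 are the named genes called with and without control replicate 1, and the last pair are the probes of Plxdc1, which did not give the same size.
Irak2, chr4:149588306-149591904, plus strand: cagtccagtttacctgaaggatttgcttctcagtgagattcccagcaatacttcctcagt
Dusp14, chr10:72336588-72336647, minus strand: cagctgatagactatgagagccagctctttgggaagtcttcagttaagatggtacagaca
Ubxn2b, chr5:19644737-19644794, plus strand: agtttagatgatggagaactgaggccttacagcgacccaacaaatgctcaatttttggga
Plxdc1, probe read here, chr10:86688511-86688570, minus strand: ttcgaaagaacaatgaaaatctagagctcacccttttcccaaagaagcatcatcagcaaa
Plxdc1, other probe, chr10:86693543-86700376, minus strand: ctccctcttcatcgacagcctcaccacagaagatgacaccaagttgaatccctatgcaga
The positions of the Irak2 probe and of the other Plxdc1 probe run far past the probe's own length, so that the file places each of them across a gap in the genome.

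Among the ligands, the cytokine and chemokine genes Il1b and Ccl3 were higher in AIA-hot synovium. The calls depended on the setting: of 17 alternatives Il1b passed in 6 and Ccl3 in 3. Il1b, which encodes interleukin-1 beta, lay at 0.78, 0.27 and 0.35 on the AIA-hot arrays and at -2.01, -1.25 and -1.66 on the control arrays. No AIA-hot array came near a control array, and control replicate 1 was the lowest and not well above background. The difference was 2.11 ± 0.32, a 4.31-fold change (limma adjusted p = 0.0343), and the gene's other probe gave 2.02. Without control replicate 1 it was 1.92 with a limma adjusted p = 0.0918. Ccl3, a chemokine that attracts monocytes and T cells, lay at -1.52, -1.55 and -1.09 in AIA-hot and at -3.23, -2.60 and -3.0 in control, where 2 of 3 arrays were well above background and replicate 1 was not. Its difference over all 3 was 1.56 ± 0.24 (limma adjusted p = 0.0343), and 1.41 without control replicate 1 (limma adjusted p = 0.102). The related chemokine Ccl4 lay at -2.22, -2.00 and -2.12 in AIA-hot and at -4.14, -3.20 and -3.76 in control, where 1 of 3 arrays was well above background. Its difference of 1.59 ± 0.28 did not pass (limma adjusted p = 0.0667).

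In AIA alone and AIA-cold, Il1b lay between these levels. It was at -0.75, -0.82 and -1.04 on the AIA arrays and at -0.46, -0.43 and -0.52 on the AIA-cold arrays, all of them below every AIA-hot array and above every control array. AIA-hot minus AIA was 1.34 ± 0.32 with an unadjusted p = 0.000807, and this did not pass over all genes (limma adjusted p = 0.839). Ccl3 was highest in AIA-cold, at -0.99, -1.0 and -1.06, and AIA-hot minus AIA-cold was -0.37 ± 0.24 (limma adjusted p = 0.964). The naturally occurring antagonist of interleukin-1, encoded by Il1rn, lay at 0.57, 0.82 and -0.32 in AIA-hot and at -3.37, -1.12 and -1.37 in control. Its difference of 2.31 ± 0.48 missed the threshold (limma adjusted p = 0.0894). Il6 did not follow, at -2.81, -2.97 and -4.38 in AIA-hot against -1.75, -3.63 and -3.65 in control (difference -0.37 ± 0.46). Tnf, Il1a, Il17a and Ifng were below the filter on dim probes. Of the 9 measured inflammatory cytokines 6 were higher in AIA-hot with a median of 0.05, against -0.05 over all genes, and Il1b was the member that passed.

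**Figure D1:**
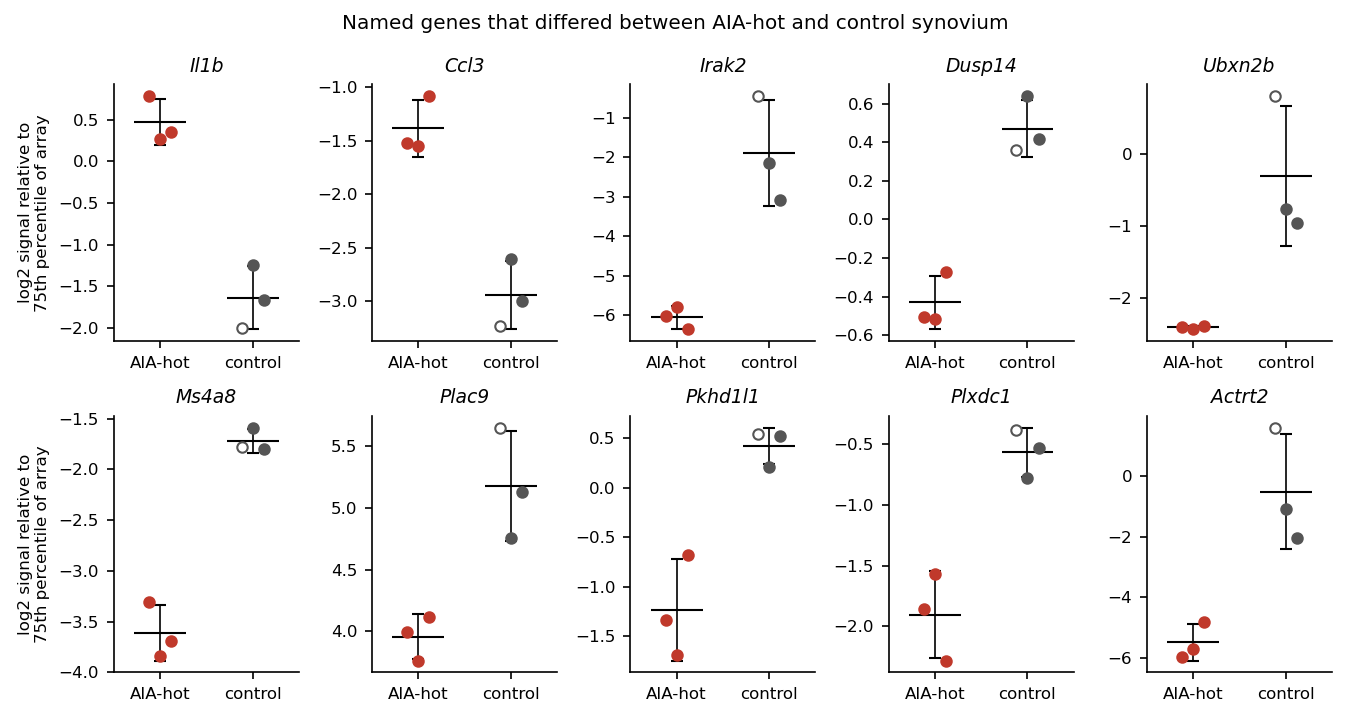
Log2 signal relative to the 75th percentile of the array for the 10 named genes that passed the test, with AIA-hot arrays in red and control arrays in grey (control replicate 1 open), the mean as a line and the SD as a bar (n = 3 arrays each). Il1b and Ccl3 lie above the controls on every AIA-hot array and the other 8 genes lie below them, and the open symbol is the highest control for Irak2, Ubxn2b, Plac9, Pkhd1l1, Plxdc1 and Actrt2.

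Downstream of the receptor, Irak2 fell. Irak2 encodes an adaptor kinase of the interleukin-1 and Toll-like receptor complex. It lay at -6.01, -5.78 and -6.35 on the AIA-hot arrays and at -0.46, -2.14 and -3.08 on the control arrays. It was well above background on 0 of 3 AIA-hot arrays and on 3 of 3 control arrays, so its fold is a bound: at least 3.66-fold lower in AIA-hot (limma adjusted p = 0.0216), and at least 2.23-fold lower without control replicate 1 (limma adjusted p = 0.0294). Such a bound sets the mean of the bright group against the lowest signal well above background on each array of the dim group. On AIA replicate 1, the arthritis array that shared the slide of the controls, Irak2 lay at -4.33. On AIA replicates 2 and 3, on another slide, it lay at -5.86 and -5.67. It was well above background on 0 of 3 AIA arrays and 1 of 3 AIA-cold arrays. Among the groups described, it thus met the filter on dim probes through control alone, the group where it was high. The limma p of Irak2 also rests on AIA-hot values that were not resolved, so it is no measure of the size of a fall. Another 3 called transcripts had the same pattern, dim on all AIA-hot arrays and highest on control replicate 1. Actrt2, an actin-related gene known from testis, lay at -5.97, -5.70 and -4.81 in AIA-hot and at 1.61, -1.09 and -2.04 in control, at least 9.57-fold lower and at least 4.59-fold lower without control replicate 1. The unnamed BQ204855 was at least 3.98-fold lower (2.80-fold without that array) and A_44_P324138 at least 5.35-fold lower (3.10-fold). Both of these unnamed transcripts, like Irak2, met the filter through control alone among the groups described. The part of control replicate 1 in the size of these differences shows in the smaller bounds without it. On AIA replicates 1, 2 and 3 Actrt2 lay at -3.55, -5.75 and -5.38. A_44_P324138 lay there at -3.37, -5.84 and -5.39, and BQ204855 at -5.19, -5.37 and -4.51. The part of the slide in the levels of these transcripts and of Irak2 was not tested.

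The rest of the receptor pathway had no shared direction. Of its 23 measured genes, those of interleukin-1 and Toll-like receptors, 13 were higher and 10 lower, with a median of 0.04 against -0.05 over all genes, and 0.23 after quantile normalization. Irak1, the partner kinase, lay at 0.13, 0.15 and 0.10 in AIA-hot and at 0.64, 0.37 and 0.51 in control, a difference of -0.38 ± 0.15 that did not pass (limma adjusted p = 0.345). Myd88, the adaptor shared by these receptors, differed by 0.38 ± 0.20 and by 0.16 without control replicate 1. Nfkbia, the NF-kB inhibitor that NF-kB itself induces, differed by -0.42 ± 0.19. The decoy receptor gene Il1r2 differed by 1.04 ± 0.47, with arrays that overlapped (-0.59, -0.19 and 0.15 against -1.84, -0.34 and -1.58).

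Of the regulators, Dusp14 and Ubxn2b fell. The gene encodes a dual-specificity phosphatase that acts on MAP kinases and on TAK1, a kinase of the interleukin-1 pathway. It lay at -0.50, -0.52 and -0.27 in AIA-hot and at 0.36, 0.64 and 0.42 in control, a difference of -0.90 ± 0.13 or 0.535 times the control level (limma adjusted p = 0.0343). Control replicate 1 was the lowest of the controls, and without it the difference was -0.96 (limma adjusted p = 0.0415). In AIA alone the 3 arrays lay between -0.08 and 0.02, and in AIA-cold between -0.75 and -0.48. Ubxn2b, an adaptor of the p97 ATPase, lay at -2.40, -2.44 and -2.40 in AIA-hot and at 0.81, -0.76 and -0.96 in control. Its difference was -2.11 ± 0.33 (limma adjusted p = 0.0343) and -1.55 without control replicate 1 (limma adjusted p = 0.0151). It was as low in AIA (-1.84, -2.44 and -2.33) and in AIA-cold (-2.54, -2.22 and -2.26). Of the 15 measured MAP kinase phosphatases and regulators 5 were higher and 10 lower, with a median of -0.17 that lay at -0.03 after quantile normalization and at 0.01 after normexp background correction. Dusp1 differed by -0.92 ± 0.37 and by -0.43 without control replicate 1.

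The remaining called genes with a symbol encode membrane or secreted proteins, and they fell. Ms4a8, of the family of 4-pass membrane proteins that includes CD20, lay at -3.30, -3.84 and -3.69 in AIA-hot and at -1.78, -1.59 and -1.80 in control (difference -1.89 ± 0.29, limma adjusted p = 0.0343). It was well above background on 2 of 3 arrays in each group. Pkhd1l1, a large receptor-like gene, lay at -1.34, -1.69 and -0.68 in AIA-hot and at 0.54, 0.21 and 0.52 in control (difference -1.66 ± 0.26, limma adjusted p = 0.0343). Plac9, which encodes a small secreted protein, lay at 3.99, 3.76 and 4.12 in AIA-hot and at 5.65, 4.76 and 5.12 in control (difference -1.22 ± 0.20, limma adjusted p = 0.047). Plxdc1, known as a tumour endothelial marker, lay at -1.86, -1.57 and -2.28 in AIA-hot and at -0.38, -0.78 and -0.53 in control. Its difference was -1.34 ± 0.21 on the probe read here (limma adjusted p = 0.0343) and -0.58 ± 0.36 on the other probe printed above. Without control replicate 1 these 4 genes differed by -1.92, -1.60, -0.98 and -1.25, with limma adjusted p from 0.0867 to 0.102. The unnamed A_44_P543733 rose, at 1.44, 1.33 and 1.21 in AIA-hot against 0.59, 0.41 and 0.48 in control, by 0.83 ± 0.12 (limma adjusted p = 0.0343, and 0.0405 without control replicate 1).

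**Figure D2:**
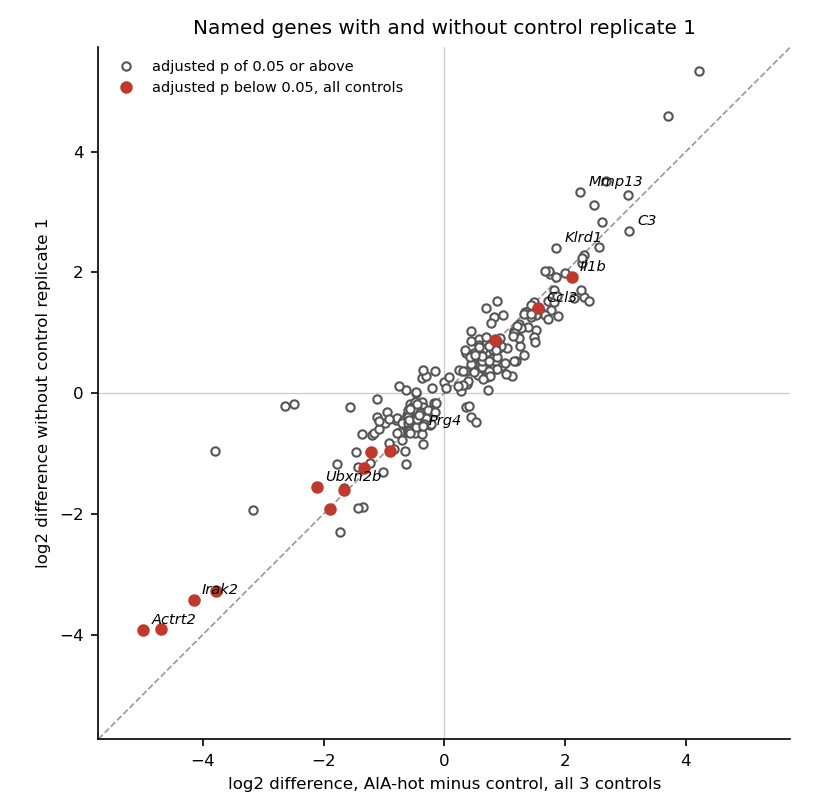
Log2 difference AIA-hot minus control of the named genes with all 3 controls (horizontal) and without control replicate 1 (vertical), with genes that passed the test in red and a dashed line of equal values. Il1b, Ccl3 and C3 lie near the line, Irak2, Actrt2 and Ubxn2b lie above it with smaller negative differences on the vertical axis, and the cartilage genes Snorc and Cnmd lie at -2.63 and -2.49 on the horizontal axis and at -0.21 and -0.18 on the vertical one.

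The lists below describe 45 pathways and cell types, of whose 844 listed genes 682 were measured, 104 were below the filter and 58 had no probe. Apart from Il1b, Ccl3, Irak2, Dusp14 and Plxdc1 no listed gene passed the test with all controls. The lists are given by counts and medians, to be read against all genes, of which 43.3% were higher in AIA-hot, 5.02% were higher with no overlap between the groups' arrays and 8.06% lower with no overlap. Without control replicate 1 those shares were 46.0%, 12.9% and 17.0%.

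The type I interferon response, with 25 measured members, was higher in AIA-hot for each of them with a median of 0.83, and 6 of 25 had arrays that did not overlap. No member passed (smallest limma adjusted p = 0.288). Without control replicate 1 the median was 0.78 and all 25 were still higher. The level was uneven over the AIA-hot arrays. Isg15, a ubiquitin-like modifier, lay at 2.03, 5.69 and 3.68 in AIA-hot and at 2.35, 1.98 and 2.70 in control. Mx1, an antiviral GTPase, lay at -3.24, 0.25 and -2.15 in AIA-hot and at -3.44, -3.47 and -2.56 in control. Irf7, the transcription factor that amplifies interferon production, lay at 2.95, 5.74 and 4.11 in AIA-hot and at 2.57, 2.67 and 3.11 in control. In each of these AIA-hot replicate 2 was the highest, replicate 3 next and replicate 1 within or close to the control range. Oas1a, which senses double-stranded RNA, was higher on every AIA-hot array, at 3.31, 5.42 and 4.34 against 3.04, 2.86 and 3.17 in control (1.33 ± 0.51, limma adjusted p = 0.324). With AIA-hot replicate 2 left out the list's median was 0.38 and 21 of 25 were higher, and with replicate 1 left out it was 1.29. Against the other arthritis groups the list's median was 0.52 for AIA-hot minus AIA and 0.92 for AIA-hot minus AIA-cold.

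Some of these promoters hold the core letters of the element through which interferon acts. The core of the interferon-stimulated response element, searched as GAAA, any 2 bases and GAAA again, was looked for on both strands of the 300-base RefSeq promoters (build GRCr8, 250 bases before and 50 after the gene start). It occurred in 11 of the 18 measured interferon response genes with an entry (61.1%) and in 1034 of all 27457 promoters (3.77%). The promoter of Mx1 was among the 7 without it. The kappa-B core, searched as GGGA, any 2 bases and TTCC, was in 0 of the 18 and in 355 of all (1.29%). The promoters of 4 genes are shown with the matches in capitals, 3 of antiviral genes with the response element and that of the chemokine Cxcl10, which holds both kinds.
Oas1a, chr12:41330216-41330515, plus strand: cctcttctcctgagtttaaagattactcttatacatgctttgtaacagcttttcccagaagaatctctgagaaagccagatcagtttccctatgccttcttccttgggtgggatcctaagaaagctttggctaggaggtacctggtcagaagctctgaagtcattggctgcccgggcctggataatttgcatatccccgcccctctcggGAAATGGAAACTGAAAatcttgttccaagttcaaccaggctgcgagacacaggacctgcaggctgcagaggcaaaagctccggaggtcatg
Irf7, chr1:205799974-205800273, minus strand: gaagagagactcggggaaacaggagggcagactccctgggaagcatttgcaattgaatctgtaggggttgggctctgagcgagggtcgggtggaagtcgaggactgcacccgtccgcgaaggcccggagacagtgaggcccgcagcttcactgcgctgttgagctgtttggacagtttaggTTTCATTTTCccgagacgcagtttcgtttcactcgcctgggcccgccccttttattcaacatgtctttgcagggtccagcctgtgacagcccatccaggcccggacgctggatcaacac
Ifit3, chr1:241527076-241527375, plus strand: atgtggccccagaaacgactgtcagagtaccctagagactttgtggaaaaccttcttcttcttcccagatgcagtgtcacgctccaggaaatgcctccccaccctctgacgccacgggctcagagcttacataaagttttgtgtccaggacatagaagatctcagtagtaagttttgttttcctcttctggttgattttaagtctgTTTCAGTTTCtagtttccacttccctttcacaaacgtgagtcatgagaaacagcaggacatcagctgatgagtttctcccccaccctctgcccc
Cxcl10, chr14:15988816-15989115, plus strand: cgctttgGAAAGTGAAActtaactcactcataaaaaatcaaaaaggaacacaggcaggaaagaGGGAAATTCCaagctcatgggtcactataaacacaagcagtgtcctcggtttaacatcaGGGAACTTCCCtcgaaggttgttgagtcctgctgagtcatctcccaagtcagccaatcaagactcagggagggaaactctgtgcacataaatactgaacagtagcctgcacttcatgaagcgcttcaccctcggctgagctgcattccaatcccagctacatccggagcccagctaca
The Oas1a promoter has a pair of overlapping response elements and the second kappa-B stretch of Cxcl10 reads on both strands; a match is a description of letters and not a measured site. Ifit3 lay at -2.96, -0.28 and -1.88 in AIA-hot and at -3.05, -3.10 and -2.94 in control. Cxcl10, which attracts activated T cells, lay at 0.26, 1.63 and 1.02 in AIA-hot and at -2.09, 0.11 and -0.74 in control (1.88 ± 0.97, and 1.28 without control replicate 1). Neither set of letters was in the Il1b promoter.

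The genes of the response to interferon gamma and of MHC class I presentation were more even, and those of MHC class II were not. All 15 measured interferon gamma response genes were higher with a median of 0.48 (0.64, with 14 higher, without control replicate 1), and 7 of 15 had arrays that did not overlap. Of the 13 measured MHC class I genes 12 were higher, 6 without overlap, with a median of 0.35 (0.34). RT1-A2, a classical class I heavy chain gene, lay at 4.69, 4.98 and 4.71 in AIA-hot and at 4.29, 4.26 and 4.34 in control (0.50 ± 0.13, limma adjusted p = 0.163). RT1-S3, a non-classical class I gene, lay at 3.73, 4.81 and 3.79 in AIA-hot and at 3.19, 3.06 and 3.32 in control (0.92 ± 0.24, limma adjusted p = 0.16). These heavy chain genes are close copies of each other, so one probe may read more than one of them. Of the 12 measured MHC class II genes 11 were higher with a median of 0.89 (0.62), but 0 were free of overlap, and without AIA-hot replicate 2 the median was 0.52 with 9 higher. Cd74, the class II invariant chain, lay at 6.75, 7.15 and 5.52 in AIA-hot and at 4.27, 5.97 and 5.41 in control, with AIA-hot replicate 3 within the control range and control replicate 1 the lowest.

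Genes of T cells and cytotoxic cells were higher as well. Of 16 measured T cell genes 15 were higher, 7 without overlap, with a median of 0.89, and 1.18 without control replicate 1. The median was 0.71 with the 6 dim members at their bound, 0.44 after normexp and 1.38 after quantile normalization. Cd8b, a chain of the cytotoxic T cell co-receptor, lay at -0.96, -1.17 and -2.24 in AIA-hot and at -3.85, -2.57 and -3.37 in control (1.81 ± 0.42, limma adjusted p = 0.126). Ctla4, an inhibitory T cell receptor, was well above background on all 3 AIA-hot arrays and on 0 control arrays, at -3.48, -3.0 and -3.48 against -4.09, -4.03 and -3.96. With all controls no bound on a rise of Ctla4 could be set (limma adjusted p = 0.139). Without control replicate 1 Ctla4 was at least 1.41-fold higher. All 10 measured cytotoxic and NK cell genes were higher with a median of 1.20, and 4 of 10 were without overlap. The median was 0.34 with the 5 dim members at their bound and 0.50 after normexp. The 4 members without overlap are the ones described next, and the arrays of the rest overlapped. Gzmm, a granzyme of NK cells, lay at 0.07, -0.93 and 0.20 in AIA-hot and at -3.62, -1.64 and -2.19 in control (2.27 ± 0.44, limma adjusted p = 0.076). Prf1, the pore-forming perforin, lay at -0.51, -1.53 and -0.31 in AIA-hot and at -2.88, -2.15 and -2.45 in control. Nkg7, a granule protein, lay at 0.11, -0.62 and 0.16 in AIA-hot and at -2.16, -1.58 and -2.08 in control. For these 3 genes 2 of 3 control arrays were well above background, no array of one group reached the other, and AIA-hot replicate 2, the highest for interferon genes, was the lowest of its group. Klrd1, the CD94 chain of NK receptors, lay at -3.04, -3.53 and -2.69 in AIA-hot and at -3.84, -5.04 and -5.94 in control. It was well above background on 2 of 3 AIA-hot arrays and 0 control arrays, with a limma adjusted p = 0.111, and 0.0405 without control replicate 1. Both p-values rest on control levels of Klrd1 that were not resolved, so they are no measure of the size of a rise.

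**Figure D3:**
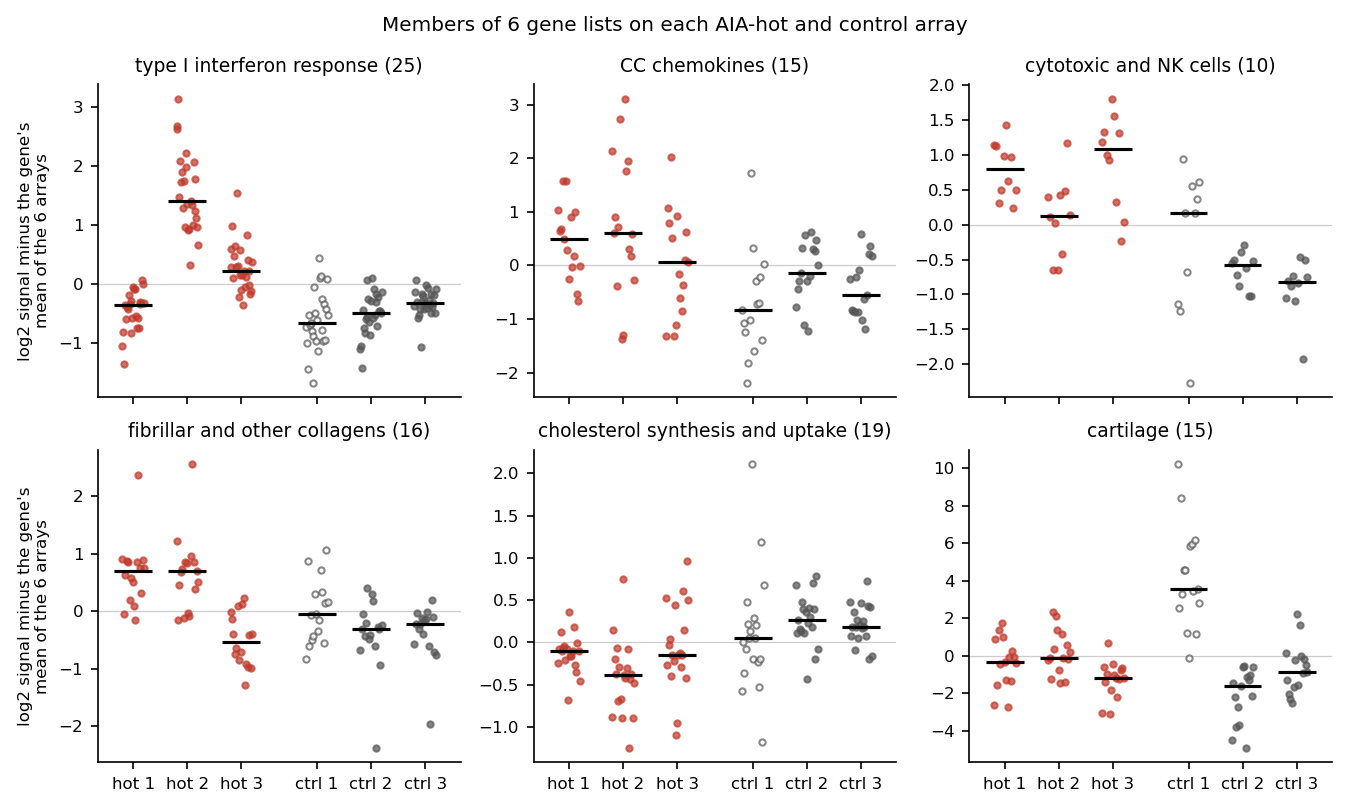
Log2 signal of each member of 6 gene lists on each AIA-hot (red) and control (grey, replicate 1 open) array, minus the gene's own mean over the 6 arrays, with the array's median as a line. The interferon median is 1.42 on AIA-hot replicate 2 and -0.35 on replicate 1, the collagen median is 0.69 on replicates 1 and 2 and -0.53 on replicate 3, and the cartilage median is 3.53 on control replicate 1.

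Among the chemokines, 11 of 15 measured CC members were higher with a median of 0.86 (0.71 without control replicate 1), 4 of them without overlap. Without AIA-hot replicate 2 the median was 0.48. Ccl5, a T cell product, lay at 1.86, -0.10 and 2.31 in AIA-hot and at -1.90, 0.15 and -0.59 in control (2.14 ± 0.59, limma adjusted p = 0.174). Ccl12, a monocyte attractant of rodents, lay at -1.08, 1.12 and -2.16 in AIA-hot and at -3.59, -3.22 and -3.02 in control (2.57 ± 0.77, limma adjusted p = 0.214). The related monocyte attractants Ccl2 and Ccl7 were divided within the AIA-hot group. Ccl2 lay at 3.09, 4.18 and 0.73 in AIA-hot and at 1.22, 1.27 and 1.79 in control, and Ccl7 at 2.50, 3.66 and -0.39 in AIA-hot and at -0.09, -0.18 and 0.05 in control, so that AIA-hot replicate 3 lay below every control for both. The CXC and other chemokines had a median of 0.50 (0.27), with 9 of 13 higher. Cxcl1, a neutrophil attractant, lay at -1.45, -0.78 and -1.63 in AIA-hot and at -3.77, -2.21 and -2.44 in control (1.52 ± 0.44, limma adjusted p = 0.191). Of 9 measured chemokine receptors 5 were higher with a median of 0.09, and Ackr4, a scavenging receptor, lay at -2.53, -2.44 and -2.67 in AIA-hot and at -0.74, -1.81 and -0.82 in control.

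The 14 measured neutrophil genes had a median of 1.05, and 0.52 with the 4 dim members at their bound, with 11 higher. It was 0.39 after normexp and 1.62 after quantile normalization. S100a9, a subunit of calprotectin, lay at 2.22, 3.60 and 2.54 in AIA-hot and at 0.20, 0.23 and -1.20 in control (3.05 ± 1.29, limma adjusted p = 0.369). The macrophage list had a median of 0.26 that became -0.31 without control replicate 1 and 0.07 without AIA-hot replicate 2, as its members averaged 0.99, 1.33 and 0.88 on the AIA-hot arrays and -0.45, 1.33 and 1.17 on the control arrays. Of the 24 measured complement genes 20 were higher, and 13 without control replicate 1, and C3 and Cfb had the largest differences. C3, the central complement component, lay at 3.80, 3.43 and 1.77 in AIA-hot and at -0.80, 0.59 and 0.03 in control (3.06 ± 0.63, limma adjusted p = 0.0894). Cfb, factor B of the alternative pathway, lay at 3.36, 3.63 and 2.59 in AIA-hot and at 0.67, 1.21 and 0.86 in control (2.28 ± 0.41, limma adjusted p = 0.0667). No control array reached an AIA-hot array for either gene, and the median of the whole list was 0.27 (0.12 without control replicate 1).

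Many matrix genes, but not all, lay lower on AIA-hot replicate 3, which was hybridised on another slide, than on AIA-hot replicates 1 and 2. Of the collagens, Col4a1 and Col4a2 were higher on replicate 3 than on replicates 1 and 2, and Col1a2 and Col5a3 lay between those. Col1a1, the main chain of type I collagen, lay at 8.85, 9.16 and 7.93 in AIA-hot and at 7.11, 7.27 and 7.38 in control (1.39 ± 0.41, limma adjusted p = 0.205; its 3 probes ran from -0.03 to 1.75). Col12a1, a fibril-associated collagen, lay at 0.68, 0.87 and -2.61 in AIA-hot and at -1.35, -4.07 and -3.64 in control. Mmp13, a collagenase, lay at 2.84, 3.72 and -3.65 in AIA-hot and at 0.90, -2.37 and -2.35 in control. Timp1, an inhibitor of such proteases, lay at 5.52, 5.41 and 3.54 in AIA-hot and at 4.14, 4.41 and 4.43 in control. In the last 2, AIA-hot replicate 3 lay below every control array. The collagens had a median of 0.41 with 14 of 16 higher. It was 0.18, 0.15 and 0.91 with AIA-hot replicates 1, 2 and 3 left out in turn. The sublining fibroblast genes had 0.42 (15 of 18), and 0.36, 0.24 and 0.81 in the same order. Adipocyte genes ran the other way within the group, averaging 3.83, 2.90 and 4.82 on the AIA-hot arrays and 2.95, 4.68 and 4.39 on the control arrays.

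With AIA-hot replicate 3 left out, 61 genes passed (0.258% of those tested), 34 higher (0.144%) and 27 lower (0.114%), of which 12 were among the 13. The genes named here were chosen after their values were seen. C3 then differed by 3.68, Ccl7 by 3.15, Cfb by 2.58 and Bcl3, an NF-kB cofactor, by 1.24. Lbp, the binding protein of bacterial lipopolysaccharide, lay at 4.33, 4.38 and 1.46 in AIA-hot and at 1.55, 1.92 and 2.09 in control. Chi3l1, a glycoprotein of inflamed joints, lay at 2.38, 2.46 and -0.56 in AIA-hot and at -0.00, 0.13 and -0.48 in control. For both, AIA-hot replicate 3 lay below every control array. The part of the slide in these values was not tested. With control replicate 2 left out 49 genes passed (0.208%), 13 higher (0.0551%) and 36 lower (0.153%), among them all 13.

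Glycolysis and cholesterol synthesis genes lay lower. Of 18 measured glycolysis genes 16 were lower with a median of -0.45 (-0.28 without control replicate 1), 8 of them without overlap. Slc2a1, the glucose transporter GLUT1, lay at 1.64, 1.84 and 2.23 in AIA-hot and at 3.00, 2.68 and 2.78 in control (-0.92 ± 0.21, limma adjusted p = 0.111). Pgk1, a glycolytic kinase, lay at 2.40, 2.37 and 2.53 in AIA-hot and at 3.02, 3.07 and 3.02 in control. Of 19 measured cholesterol synthesis and uptake genes 18 were lower with a median of -0.40 (-0.42), 6 without overlap, and the median was -0.24 without AIA-hot replicate 2. Sqle, which makes squalene epoxide, lay at -0.45, -0.66 and -0.87 in AIA-hot and at 2.34, 0.59 and 0.44 in control (-1.78 ± 0.39, limma adjusted p = 0.0997). Msmo1, a later enzyme of the pathway, lay at 3.91, 3.64 and 3.94 in AIA-hot and at 4.11, 4.47 and 4.33 in control. No AIA-hot array reached a control array for either gene. The respiratory chain had a median of -0.21 (-0.46), with 22 of 26 lower. Without AIA-hot replicate 2 it was -0.05, that of all genes, with 12 of 26 higher. Fatty acid oxidation genes had a median of -0.06 (-0.41) with 6 of 17 higher, and 0.14 with 13 higher without AIA-hot replicate 2. Skeletal muscle genes, which express that chain strongly, had a median of -1.07 (-1.52), with 16 of 17 lower, and -0.57 without AIA-hot replicate 2 and -0.41 after normexp. The part of tissue make-up in these values was not tested.

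Other lists depended on single arrays, above all control replicate 1. Endothelial genes had a median of -0.44 with 18 of 20 lower, and -0.00 without that array. They averaged 0.71, 0.37 and 0.69 on the AIA-hot arrays and 1.78, 0.52 and 0.51 on the control arrays. Cartilage genes had a median of -0.87 with all controls and 0.73 without it, and osteoblast genes -0.87 and 0.19. Angiogenesis genes had -0.22 and 0.01, immediate early genes -0.17 and 0.17, and adipocyte genes 0.02 and -0.64. Without AIA-hot replicate 3 the immediate early median was 0.20, and without AIA-hot replicate 2 the adipocyte median was 0.52. The heat shock and temperature list, of interest because of the model's name, had a median of -0.01 in both fits, with 9 of 19 higher. Hspa1b, the inducible HSP70, lay at 1.43, 1.82 and -0.05 in AIA-hot and at 1.13, 0.16 and 0.19 in control, and Cirbp, a cold-induced RNA-binding protein, lay at -0.16, -0.51 and 0.03 in AIA-hot and at -0.54, 0.30 and 0.35 in control. Fkbp5, a glucocorticoid-induced chaperone, lay at 3.09, 3.78 and 2.93 in AIA-hot and at 1.31, 2.14 and 1.82 in control (1.51 ± 0.35, limma adjusted p = 0.128), while the 15 genes of its list had a median of 0.16, and -0.02 without control replicate 1.

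**Figure D4:**
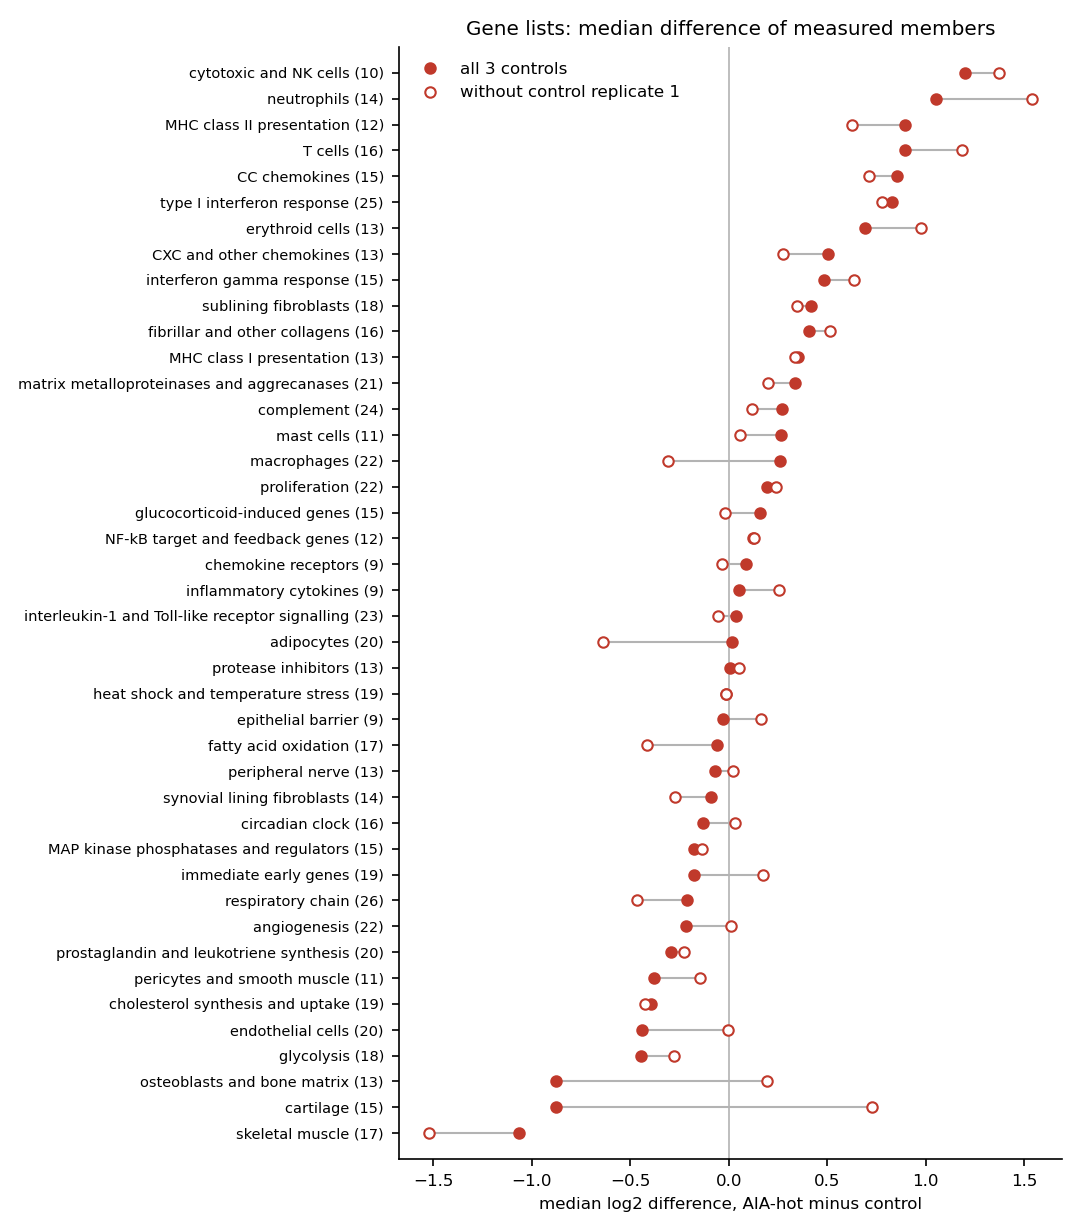
Median log2 difference AIA-hot minus control over the measured members (number in brackets) of the lists with at least 8 of them, with all 3 controls (filled) and without control replicate 1 (open). Cytotoxic, neutrophil, T cell, chemokine and interferon lists lie to the right with both symbols, skeletal muscle, glycolysis and cholesterol synthesis to the left, and the cartilage, osteoblast and macrophage symbols lie on opposite sides of 0.

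Against AIA alone, 0 genes passed for AIA-hot (0.0%), with 1210 at an unadjusted p below 0.05. Against AIA-cold 2 genes passed (0.00847%), both lower in AIA-hot. Zim1, an imprinted zinc finger gene, lay at -2.76, -3.09 and -3.0 in AIA-hot and at -0.23, -0.21 and -1.04 in AIA-cold (-2.46 ± 0.32, limma adjusted p = 0.0382). Alox15b, a lipoxygenase, lay at -5.94, -5.66 and -6.15 in AIA-hot, where it was well above background on 0 arrays, and at -3.11, -1.72 and -1.75 in AIA-cold (limma adjusted p = 0.0382). Zim1 lay at -2.59, -3.08 and -3.18 in control and Alox15b at -3.89, -6.09 and -5.85, overlapping the AIA-hot arrays for Zim1 and, but for control replicate 1, for Alox15b. No slide carried both AIA-hot and AIA-cold arrays, so slide and group cannot be told apart there. The comparisons of AIA-hot, AIA and AIA-cold with control share the control arrays. Against control 0 genes passed for AIA (0.0%) and 126 for AIA-cold (0.534%), 57 higher (0.241%) and 69 lower (0.292%). For the called genes the differences from control in AIA-hot, AIA and AIA-cold by limma were 2.11, 0.77 and 1.17 for Il1b, 1.56, 0.86 and 1.93 for Ccl3, -0.90, -0.52 and -1.11 for Dusp14 and -2.11, -1.90 and -2.04 for Ubxn2b.

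**Figure D5:**
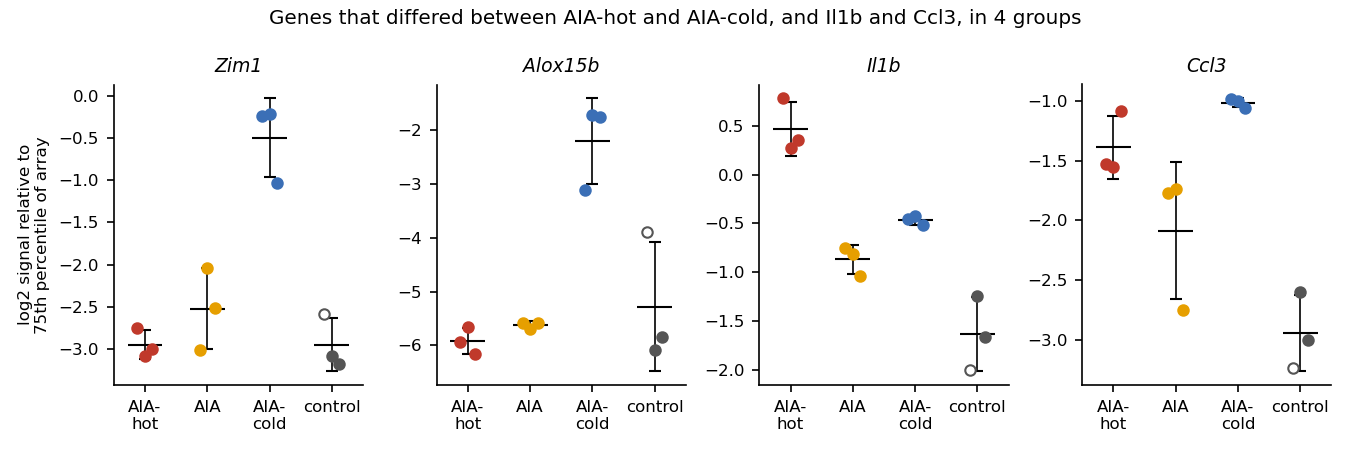
Log2 signal relative to the 75th percentile of the array for 4 genes on the AIA-hot, AIA, AIA-cold and control arrays (control replicate 1 open), with mean and SD (n = 3 arrays each). Zim1 and Alox15b are high on the AIA-cold arrays alone, Il1b is highest on the AIA-hot arrays with AIA and AIA-cold between them and the controls, and Ccl3 is highest on the AIA-cold arrays.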

How the data were processed

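RNA of 18 rat synovial samples, 6 groups of 3, was measured on single-colour Agilent arrays. Intensity values are Agilent Feature Extraction 10.7 processed signals, background-subtracted and deposited per array, per the file headers. The deposited series table holds log2 values of the same arrays, made by the authors in a way not given in the sources used here, and served as an alternative. For the main result, control and outlier spots were left out, spots of a probe averaged, and log2 signals taken relative to each array's 75th percentile. A probe entered the fit if some group had it well above background on each of its 3 arrays (28271 probes, 23606 genes), and the brightest probe stood for its gene. limma 3.58.1 in R 4.3.3 was fitted to all 18 arrays, with Benjamini-Hochberg adjustment, and tested on simulated data. The AIA-hot comparisons tested 23605 genes, since 1 lacked a value. Of the tested genes 11977 had a symbol, and 67 probe values were missing through outlier flags. The number of arrays limits the precision. Alternatives changed the scaling, background, filter, probe rule, arrays, weights and slide. Genes were named by a rule, except where the text says that their values were seen first. The rule took the called genes, a fixed set of genes and the listed members with the smallest p. It also allowed any measured interferon, chemokine or cytotoxic gene. The members and lists were chosen with earlier results of these data known. Promoter sequences are RefSeq's, build GRCr8.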

Additional observations from a re-analysis of the deposited data

Results flagged for a closer look

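Zim1 and Alox15b stood out because AIA-hot and AIA-cold, compared directly, differed past the threshold. Zim1 had a log2 difference of -2.4557 between AIA-hot and AIA-cold, and 0.00 ± 0.32 between AIA-hot and control (limma adjusted p = 0.0382 and 0.999). Alox15b had a log2 difference of -3.7229 between AIA-hot and AIA-cold, and -0.64 ± 0.51 between AIA-hot and control (limma adjusted p = 0.0382 and 0.633). Alox15b was well above background on 0 of 3 AIA-hot arrays and on 3 of 3 AIA-cold arrays, so its fitted difference is no measure of a fold.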

How the results depend on the processing

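The 13 genes called for AIA-hot minus control became 22 after quantile normalization or in the series table, 6 after normexp, 3 with no filter on dim probes or with probes well above background on 1 array, 0 on the arrays of the 2 groups only (1297 at an unadjusted p below 0.05), 3089 with array weights, 0 with slide as a random block (2004 unadjusted) and 5 with slide as a fixed block, of which 0 were among the 13. The array weight was 0.09 for control replicate 1, 0.38 for AIA-hot replicate 3 and 2.83 for AIA-hot replicate 1. Leaving out 1 array gave 0 to 61: 2 without AIA-hot replicate 1, 0 without replicate 2 (1683 unadjusted) and 61 without replicate 3, and 7, 49 and 16 without control replicates 1, 2 and 3. With control replicate 1 left out and probes chosen again, an alternative chosen after seeing the data, 9 passed. Of the 17 alternatives, Irak2 passed in 11, Dusp14 and Ubxn2b in 9, and Actrt2, Ms4a8 and Pkhd1l1 in 7. Il1b passed in 6, Plxdc1 in 5, and Ccl3 and Plac9 in 3. For AIA-hot minus AIA the 0 calls became 2 after quantile normalization, 1 in the series table and on the 2 groups only, 198 with array weights and 142 with slide as a fixed block, and 0 to 3 when 1 array was left out. For AIA-hot minus AIA-cold the 2 calls became 0 with no filter, with probes on 1 array, on the 2 groups only and with slide as a random block, 3852 with array weights, 5 with control replicate 1 left out and probes chosen again, and 0 to 2 when 1 array was left out. Slide as a fixed block could not be fitted for that comparison. The cause of these changes was not tested. No value changed sign past its test. The median of all genes was -0.05, and -0.21 with no filter and 0.03 after quantile normalization. No paired analysis was possible because the titles number every array as replicate 1. The sample codes in them hold numbers whose meaning is not given, and AIA-hot shares 1 of these with control, 1 with AIA and 2 with AIA-cold. A signal near background limits what the dim genes show: a level there is a bound.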

Other observations

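Of the 23606 genes in the fit, 89, 43 of them with a symbol, were well above background on all 3 AIA-hot arrays and on 0 control arrays. The reverse held for 44 genes, 17 with a symbol. With control replicate 1, the dimmest array, set aside, these counts were 100 and 85. The lowest resolved signal of control replicate 1 was -1.86, so the 89 genes were not each shown to be higher. Pitx3 and Tbkbp1 had no bound with all controls, and Tsg101 and LOC286987 differed by -0.21 and -0.11. The genes named here were chosen after their values were seen. Sit1, an adaptor of T cell receptor signalling, lay at -1.46, -1.68 and -2.64 in AIA-hot and at -3.88, -3.88 and -4.21 in control, at least 2.34-fold higher in AIA-hot (limma adjusted p = 0.168). Zbtb5, a zinc finger gene, was at least 10.8-fold lower in AIA-hot with all controls and at least 5.34-fold lower without control replicate 1, its highest control (limma adjusted p = 0.0531 with all controls).

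Erythroid genes had a median difference of 0.69 with 11 of 13 higher in AIA-hot, and 0.98 without control replicate 1. With all controls 1 of 13 was higher without overlap, against 5.02% of all genes. They averaged 0.02, -0.67 and 0.84 on the AIA-hot arrays and -0.26, -0.03 and -2.23 on the control arrays, with control replicate 3 the lowest. Their median was 1.30 without AIA-hot replicate 2, 0.45 without replicate 3 (9 of 13 higher) and 0.33 after normexp. Proliferation genes had 0.19 with 18 of 22 higher, and -0.07 with AIA-hot replicate 1 left out or 0.61 with replicate 3 left out. Genes of prostaglandin and leukotriene synthesis had -0.29 with 15 of 20 lower, but -0.07 with the 2 dim members at their bound and -0.08 with 9 of 20 higher after quantile normalization. The circadian clock list had -0.13, and 0.03 without control replicate 1 and 0.01 after normexp.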
